A study of Mus musculus with 60 samples.

Results

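The 9 genes described here encode core parts of the mTOR pathway and its nutrient-sensing brakes, and their peaks were read from CUT&RUN-seq of the hippocampus. mTORC1, a growth-promoting kinase complex that works at the lysosome, is built on the kinase mTOR (Mtor) and the scaffold Raptor (Rptor), whereas Rictor defines the second complex, mTORC2. TSC1 and TSC2 (Tsc1, Tsc2) hold mTORC1 back by switching off its activator Rheb. GATOR1, made of Depdc5, Nprl2 and Nprl3, switches off the Rag GTPases that bring mTORC1 to the lysosome when amino acids are scarce, and KICSTOR, of which Kaptin (Kptn) is a subunit, anchors GATOR1 there. In neurons this pathway is known for its part in protein synthesis, synaptic plasticity and memory.

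A peak belonged to a gene if the deposited table gave that gene's symbol. By this rule 107 of 256375 peaks over 12 lists belonged to the 9 genes. Of these, 101 carried H4K8ac, an acetylation found at active genes, and 6 carried H3K27me3, a methylation found at repressed genes. Of the 9 genes, 7 had a peak in at least 1 list, as did 64.97% of coding genes. Tsc1 and Nprl2 had none, in either mark.

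The nuclei came from male Emx1-NuTRAP mice, a cross of Emx1-IRES-Cre with the NuTRAP reporter, so that only cells with a history of Emx1 expression, mostly excitatory neurons but also neural progenitors, carried the tag used for purification. Exercised mice had running wheels from postnatal day 21 to 41 (early-life exercise, ELE) and sedentary mice lived in standard cages over the same days. Nuclei were taken in 3 arms: SIT, where both hippocampi were processed for nuclei and RNA at once, and separate isolations of the left and of the right hippocampus. The labels gave 4 samples per antibody and condition in SIT and 3 in each separate arm, and 20 of the 60 samples were IgG controls, not analysed here.

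Each combination of mark, condition and arm had 1 pooled peak list, so no value below has a replicate error, and the depth behind a list is unknown. Lists differed in length. Some exercised H4K8ac libraries were left out by the authors before peaks were listed, most of them from the separate isolations, so these lists may rest on fewer libraries than the labels count. Mice of both conditions were also excluded for their RNA. For its SIT peaks of both marks the paper counts fewer mice of each condition than the labels do. Whether nuclei of the excluded mice entered the deposited lists is not stated in the sources used here. Sedentary and H3K27me3 lists of SIT may therefore also rest on fewer libraries than the labels count. In H4K8ac the exercised list held 38136 peaks against 30358 in SIT, 12168 against 36425 in left separate and 13715 against 25159 in right separate. In H3K27me3 the counts were 25693 against 10279, 18262 against 14491 and 9899 against 21790. Between 3 and 5 of the 5 excitatory neuron markers had an H4K8ac peak in a list, and between 2 and 4 of 10 markers of other cell types did. Aqp4 (astrocytes) and Mbp (oligodendrocytes) were among the latter in all 6 H4K8ac lists. In H3K27me3, 4 to 6 of these 10 were in a list, with Aqp4 in all 6 lists. Of the 5 excitatory neuron markers 1, Prox1, was in every H3K27me3 list. Of coding genes, 19.6 to 41.2% had H4K8ac in a list and 13.3 to 24.6% had H3K27me3. The part of list length and of other cell types in the results was not tested. In such pooled nuclei, fewer cells with a mark and less of the mark in each cell cannot be told apart.

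The stretches of DNA that carried the findings below are printed 5′ to 3′ on the transcribed strand, from RefSeq on GRCm38.p6, with every CpG in capitals. For Kptn, Mtor and Nprl3 these are the 250 bases before the RefSeq start, shown because H4K8ac at those starts was present in some lists and absent from others. For Rptor it is 300 bases of intron 19, shown because they lay within the only stretch at the 9 genes that was inside a peak of the gene's own symbol in all 6 H4K8ac lists.
Kptn, chr7:16119626-16119875, + strand: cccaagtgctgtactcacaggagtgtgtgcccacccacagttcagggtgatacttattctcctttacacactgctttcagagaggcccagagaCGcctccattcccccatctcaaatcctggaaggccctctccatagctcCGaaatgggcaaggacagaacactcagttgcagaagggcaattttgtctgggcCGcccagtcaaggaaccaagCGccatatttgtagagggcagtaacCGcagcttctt
Mtor, chr4:148448332-148448581, + strand: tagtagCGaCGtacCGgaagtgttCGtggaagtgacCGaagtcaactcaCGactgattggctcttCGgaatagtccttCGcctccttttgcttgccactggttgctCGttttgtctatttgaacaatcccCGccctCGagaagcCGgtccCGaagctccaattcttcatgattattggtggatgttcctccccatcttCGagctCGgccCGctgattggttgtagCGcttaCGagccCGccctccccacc
Nprl3, chr11:32267708-32267957, − strand: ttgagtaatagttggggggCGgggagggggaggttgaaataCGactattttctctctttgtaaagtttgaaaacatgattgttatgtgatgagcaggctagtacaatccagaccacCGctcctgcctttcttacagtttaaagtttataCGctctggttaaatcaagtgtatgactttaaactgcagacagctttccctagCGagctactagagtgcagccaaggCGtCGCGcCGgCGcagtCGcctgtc
Rptor, chr11:119857495-119857794, + strand: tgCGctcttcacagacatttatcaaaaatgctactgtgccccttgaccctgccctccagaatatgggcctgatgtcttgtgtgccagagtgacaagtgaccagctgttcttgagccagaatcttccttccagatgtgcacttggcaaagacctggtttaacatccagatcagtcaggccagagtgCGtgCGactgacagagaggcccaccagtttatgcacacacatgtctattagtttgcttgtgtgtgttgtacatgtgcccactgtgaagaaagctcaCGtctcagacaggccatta

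The Kptn stretch held 5 CpG, close to the median of 6 over 32851 RefSeq promoters cut to the same length. Mtor had 19 CpG and Nprl3 had 11. Rictor had the most of the 9 genes, with 40 CpG and 81.2% G and C, and Rptor had the lowest share of G and C, with 37.6%. An E-box (CACGTG, the core site of TFEB and MYC) was found in 6.02% of all promoters, and a full cAMP response element (TGACGTCA, the CREB site) in 1.55%. Both motifs read the same on the 2 strands, and each was searched on its own, so a match to one could share bases with a match to the other. Neither was found in these letters at any of the 9 promoters, nor in the 788 bases shared at Rptor.

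The summed widths of the assigned peaks are plotted for every gene and list. Rptor had the largest summed width in 4 of the 6 H4K8ac lists and Nprl3 in the other two, sedentary SIT and exercised right separate. The H3K27me3 columns were empty but for Rictor and Nprl3.

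**Figure D1:**
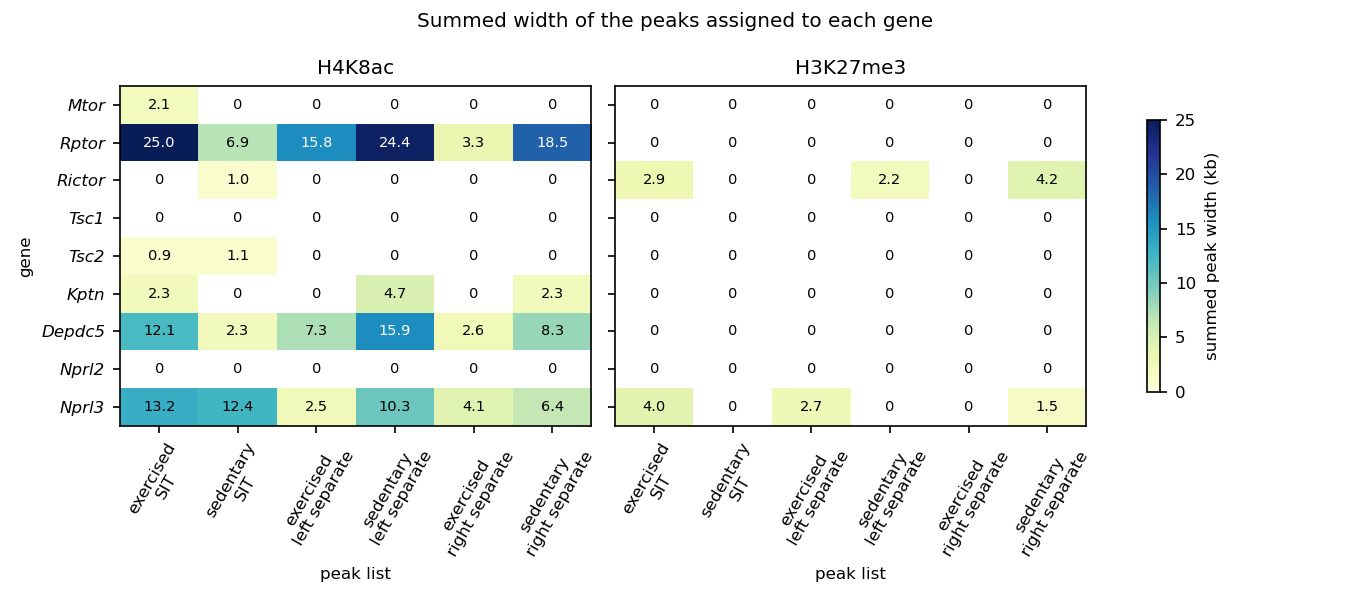
Summed width in kb of the peaks assigned to each of the 9 genes (rows) in each list (columns), with H4K8ac on the left and H3K27me3 on the right. Rptor reached 24955 bp in the exercised SIT list, Tsc1 and Nprl2 stayed at 0 in every column, and H3K27me3 was seen at Rictor and Nprl3 alone.

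At Kptn, of KICSTOR, and Mtor, the kinase itself, the assigned H4K8ac peaks lay over the gene start. Kptn (chr7:16119895-16127516, + strand, 7.622 kb) had a single H4K8ac peak in each of 3 lists. In the exercised SIT list it ran over chr7:16118871-16121134, 2264 bp in width. In the sedentary left separate list it ran over chr7:16117046-16121792 (4747 bp), and in the sedentary right separate list over chr7:16118819-16121139 (2321 bp). No peak was assigned to Kptn in the sedentary SIT list or in either exercised separate list. So the exercised list alone had the peak in SIT, and the sedentary list alone had it in both separate arms.

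All 3 Kptn peaks covered the gene start, the 250 bases printed above and exons 1 to 4, and the exercised SIT peak lay wholly inside both others. The edges of the exercised SIT and sedentary right separate peaks were within 52 bp of each other at the 5′ end and within 5 bp at the 3′ end. The sedentary left separate peak was wider than 97.5% of peaks in its list, while the other two exceeded 69.1 and 70.1% in theirs. The longer peak also reached the neighbouring gene Napa.

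Among 21911 protein-coding genes, 12.9% had H4K8ac in the exercised SIT list and not the sedentary one, and Kptn and Mtor were 2 of the 9 genes that did. The reverse, a sedentary peak alone, was found for 4.54% of coding genes in SIT and for Rictor among the 9. In left separate 1.45% of coding genes were in the exercised list alone and 21.3% in the sedentary list alone, and in right separate 3.24 and 12.7%. None of the 9 genes was in the exercised list alone in a separate arm, and Kptn was the only one in the sedentary list alone. Coding genes with exactly the same presence and absence as Kptn over the 12 lists numbered 253, or 1.15%, Kptn included. By distance over the 12 log-scaled summed widths, the 3 genes most like Kptn were Myh10, Gpr21 and Olfr523, at 0.114, 0.129 and 0.151 log10 units.

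Cut to equal numbers of the widest peaks in each arm, the lists still had Kptn on the exercised side in SIT and on the sedentary side in both separate arms. With peaks over the gene and 3 kb on either side, Kptn was covered for 26.9% of bases in the exercised SIT list and 0 in the sedentary one. It was covered for 34.8% in sedentary left separate and 17.0% in sedentary right separate, against 0 in both exercised lists. Over the 3 arms the mean difference, exercised minus sedentary, was -8.33 ± 31.8 points (SD, n = 3 arms; exact two-sided sign-flip p = 0.75). With 3 arms this test cannot go below 0.25. Part of the exercised SIT coverage came from a 1707 bp peak assigned to the next gene, Slc8a2.

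Mtor (chr4:148448611-148557683, + strand, 58 exons) had its symbol on 1 peak only, in the exercised SIT list. That H4K8ac peak, chr4:148447679-148449750, was 2072 bp wide and covered the start, exon 1 and all 250 bases printed above. No other list had a peak at the Mtor start. The gene body held further H4K8ac peaks under other symbols. In the exercised SIT list 2 intronic peaks (introns 19 and 30) carried the symbol of Angptl7, a gene that lies within Mtor, and so did 1 in the sedentary SIT list (intron 29) and 1 in sedentary left separate (intron 28). Another 2 peaks at the 3′ end, in exercised SIT and exercised right separate, were assigned to Exosc10. Counting these, Mtor was covered for 5.53% of bases in exercised SIT and 1.001% in sedentary SIT, for 0 and 0.965% in left separate, and for 1.06% and 0 in right separate. The mean difference was 1.54 ± 2.78 points (SD, n = 3 arms; exact sign-flip p = 0.50). Its nearest genes by the same distance were Nap1l3, Ecsit and Ptpn23, all within 0.00188 log10 units, and 588 coding genes (2.68%) shared its presence and absence.

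**Figure D2:**
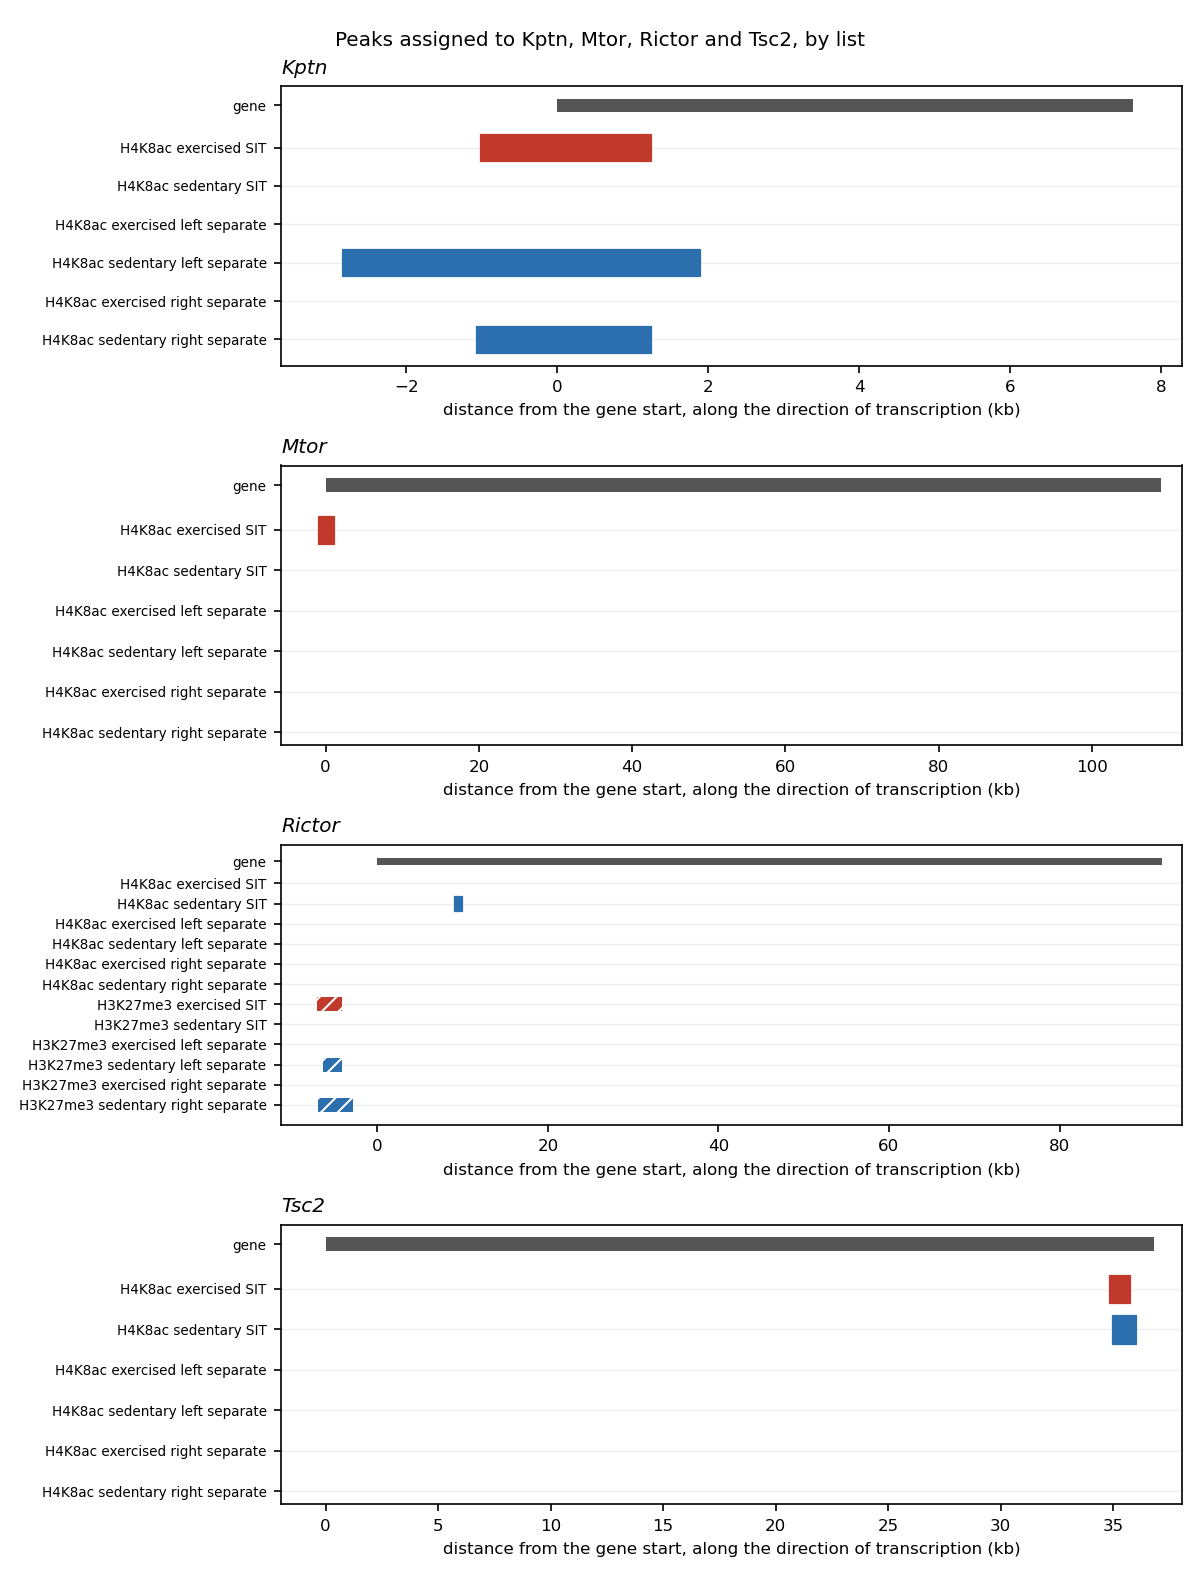
Peaks assigned to Kptn, Mtor, Rictor and Tsc2 in each list, against distance in kb from the gene start along transcription, with red for exercised, blue for sedentary, hatching for H3K27me3 and the gene as a grey bar. The 3 Kptn peaks and the Mtor peak lie over the start, the Rictor H3K27me3 peaks lie upstream of it, and the Tsc2 peaks lie at the far end of the gene.

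Raptor had the largest number of peaks of the 9 genes. Rptor (chr11:119602905-119899576, + strand, 296.672 kb) is longer than 97.4% of coding genes and carried 50 H4K8ac peaks over the 6 lists, more than 97.7% of coding genes. Per 100 kb it had 16.9 peaks, more than 74.6% of coding genes. The exercised SIT list held 14 Rptor peaks and the sedentary SIT list 5. Exercised left separate held 8 and sedentary left separate 12, and exercised right separate held 2 and sedentary right separate 9. So the exercised list had more Rptor peaks in SIT and fewer in both separate arms. Coverage went the same way, at 7.89% against 2.66% in SIT, 5.23% against 8.38% in left separate and 1.09% against 6.10% in right separate. The mean difference was -0.98 ± 5.45 points (SD, n = 3 arms, exact sign-flip p = 1). Its sign turned when the lists were cut to equal numbers of peaks.

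No Rptor peak covered the gene start. Joined wherever they overlapped, the 50 peaks formed 19 sites, of which 12 lay past the midpoint of the gene and 1 lay 9093 bp upstream. A peak was seen in 1 list only at 9 of these sites, and in all 6 lists at 1. This site, chr11:119854653-119861719, spanned exons 18 to 20 and lay 251.748 to 258.814 kb past the start. Its peaks summed to 4449 and 4311 bp in exercised and sedentary SIT, 5076 and 3499 bp in left separate, and 3311 and 3729 bp in right separate. These widths stayed within 3311 to 5076 bp, with 1 to 3 peaks at the site in a list. Over the whole gene the number of Rptor peaks ran from 2 to 14. The site was singled out because all 6 lists had a peak there. A stretch of 788 bp, chr11:119857306-119858093, was inside a peak in every list. It holds exons 19 and 20 of the main coding transcript and the intron between them, from which the 300 bases above were taken. The deposited table classed 10 of the 11 peaks at this site as promoter, by the starts of shorter Rptor transcripts.

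The same measure was taken for other genes. Of 2726 coding genes with H4K8ac in all 6 lists, 1606 (58.9%) had a base inside a peak in every list, with a median of 1240 bp. Rptor, Depdc5 and Nprl3 were in all 6 lists, and of these Rptor alone had one among peaks of its own symbol. Its 788 bp were more than 21.3% of the 1606 genes had. A second Rptor site, in intron 4 (chr11:119736079-119743828), had peaks in 4 lists, of 3944 bp in exercised SIT, 6103 bp in exercised left separate, 5935 bp in sedentary left separate and 2114 bp in sedentary right separate. It was empty in sedentary SIT and exercised right separate.

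**Figure D3:**
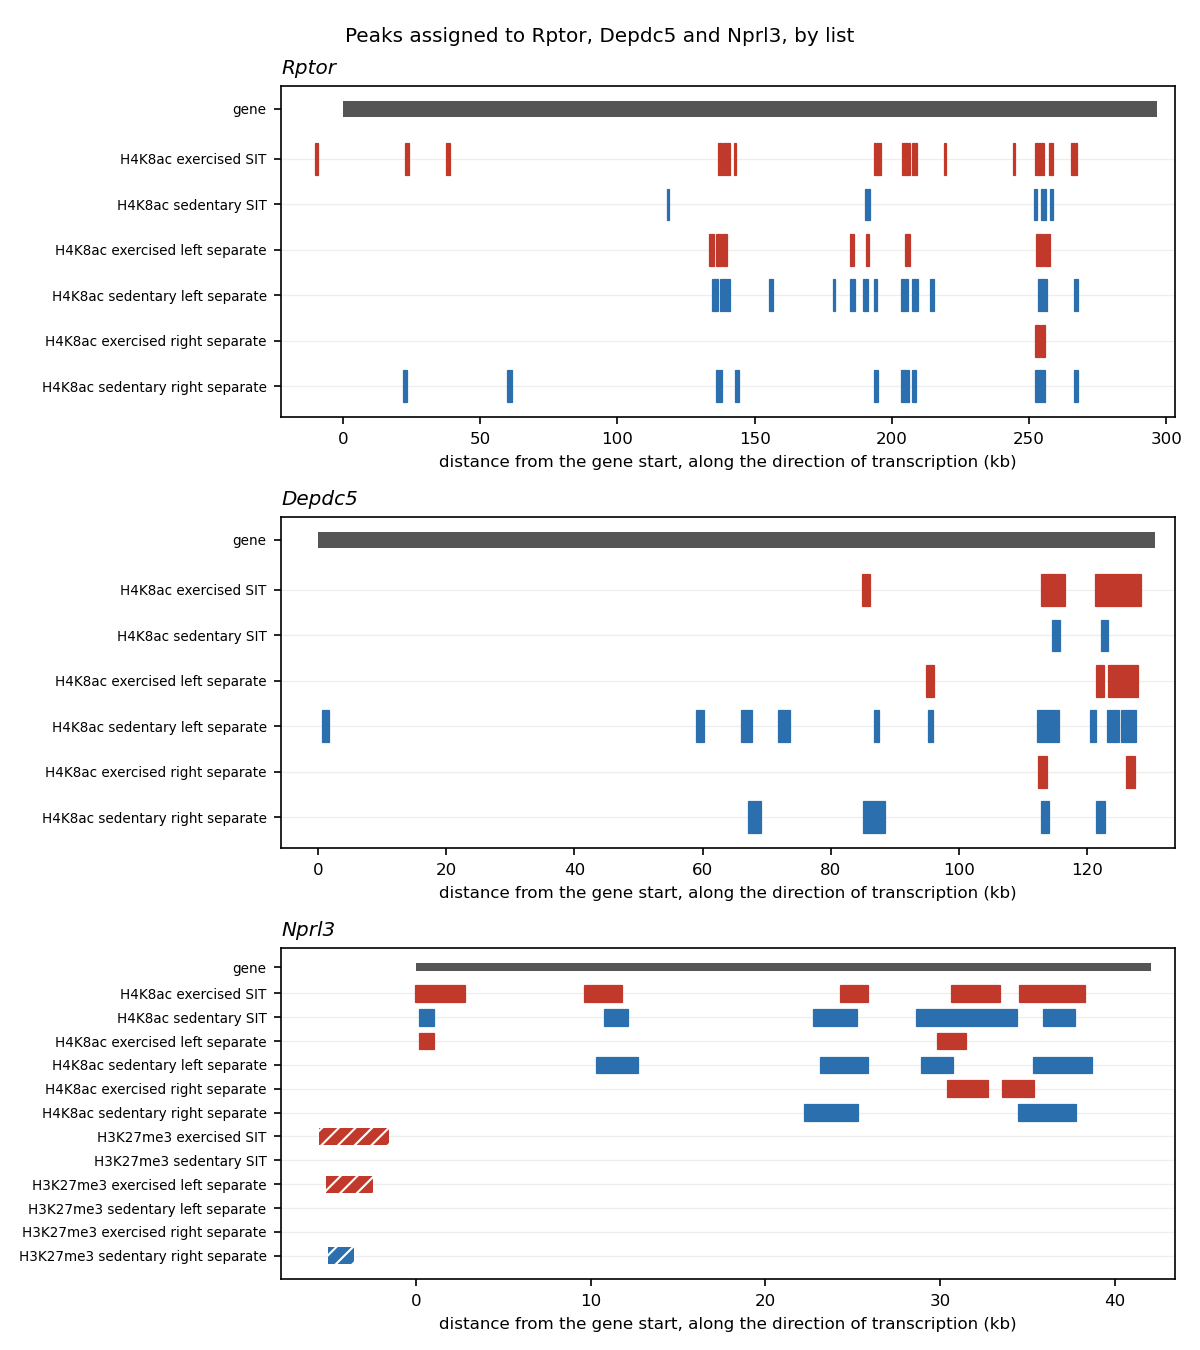
Peaks assigned to Rptor, Depdc5 and Nprl3 in each list, against distance in kb from the gene start along transcription, with red for exercised, blue for sedentary, hatching for H3K27me3 and the gene as a grey bar. Rptor and Depdc5 peaks sit mostly in the later part of the gene, the Rptor site near 250 kb has peaks in all 6 lists, and the 3 Nprl3 H3K27me3 peaks lie upstream of the start.

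Of the GATOR1 genes, Depdc5 and Nprl3 had H4K8ac in every list and Nprl2 in none. Depdc5 (chr5:32863701-32994236, + strand, 43 exons) had 24 peaks, more than 94.0% of coding genes. It is longer than 91.9% of coding genes, and per 100 kb it had more peaks than 75.8%. The lists held 3 Depdc5 peaks in exercised and 2 in sedentary SIT, 3 and 10 in left separate, and 2 and 4 in right separate. Their summed widths were 12102 and 2251 bp, 7332 and 15855 bp, and 2606 and 8316 bp. Of the 24 peaks, 22 lay past the midpoint of the gene. The single peak near the start, chr5:32864293-32865382, was in the sedentary left separate list and began 592 bp past it.

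The Depdc5 peaks formed 8 sites. The last of them, chr5:32984173-32992124 over exons 42 and 43, had a peak in all 6 lists but no base common to more than 4. Its width was 7233 bp in exercised SIT and 1012 bp in sedentary SIT, 6080 and 5209 bp in left separate, and 1314 and 1501 bp in right separate. The site before it, at exon 40, had a peak in 5 lists and was absent from exercised left separate. Over the 3′ end of the gene, every list also had a peak of 2278 to 12029 bp assigned to Ywhah. These 6 peaks had 2278 bp in common, of which 83 bp lay inside Depdc5. With those counted, coverage was 12.5% against 3.32% in SIT, 7.85% against 15.7% in left separate and 4.43% against 11.4% in right separate. The mean difference was -1.87 ± 9.57 points (SD, n = 3 arms, exact sign-flip p = 1). As at Rptor, its sign turned at equal numbers of peaks.

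Nprl3 (chr11:32225628-32267707, − strand, 42.08 kb) was the most densely marked of the listed genes per length, with 47.5 H4K8ac peaks per 100 kb over the 6 lists against 39.4 for Kptn, 18.4 for Depdc5 and 16.9 for Rptor. It is known for introns that hold the enhancers of the neighbouring alpha-globin genes. Both SIT lists had 5 Nprl3 peaks. Left separate had 2 in the exercised and 4 in the sedentary list, and right separate had 2 in each. Summed widths were 13201 and 12406 bp in SIT, 2511 and 10270 bp in left separate, and 4148 and 6424 bp in right separate. All 20 peaks were classed as promoter by the authors' table, by the nearest transcript start, although only 1 of them covered the outermost gene start.

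The Nprl3 peaks formed 4 sites. At the 3′ end, chr11:32229050-32239087 over exons 9 to 13 had peaks in all 6 lists, with 5 lists at most on any base, and it reached into the overlapping gene Mpg. A site over intron 6 and exon 7 (chr11:32241854-32245507) was in all 3 sedentary lists, with peaks of 2496, 2730 and 3086 bp in SIT, left and right separate. Among exercised lists only SIT had it, with 1587 bp. The start site, chr11:32264889-32267735, was in both SIT lists and in exercised left separate. There the exercised SIT peak was 2847 bp wide and covered the start itself and 28 of the 250 bases printed above, or 11.2%. The sedentary SIT and exercised left separate peaks were each 873 bp wide, with their edges 1 bp apart, and stopped short of the start. With overlapping peaks of Mpg and Rhbdf1 included, coverage was 35.01% against 28.1% in SIT, 9.45% against 30.4% in left separate and 10.8% against 20.3% in right separate. The mean difference was -7.87 ± 14.01 points (SD, n = 3 arms; exact sign-flip p = 0.50). Within 3 kb of the start alone the direction turned, to a mean of 15.8 points (exact sign-flip p = 0.50).

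**Figure D4:**
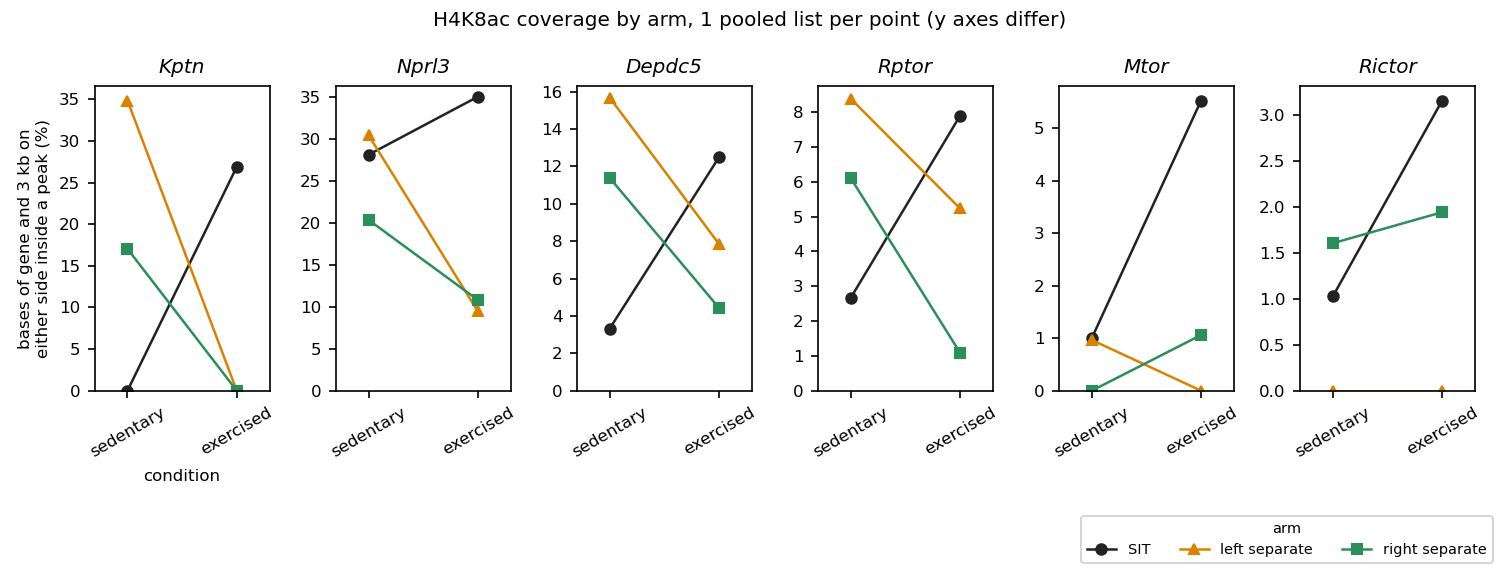
Percent of bases of each gene and 3 kb on either side that lay inside an H4K8ac peak of any symbol, in the sedentary and exercised list of each arm (circles SIT, triangles left separate, squares right separate); each point is 1 pooled list and the y axes differ. Lines for Kptn, Nprl3, Depdc5 and Rptor rise in SIT and fall in both separate arms, while Mtor rises in SIT and right separate.

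Nprl2 (chr9:107542226-107545706, 3.481 kb) and Tsc1 (chr2:28641228-28691167, 49.94 kb) had no peak of either mark over the gene or the 3 kb on either side, whatever symbol the peak carried. In this they were like many genes, since 7675 coding genes (35.03%) had their symbol in none of the 12 lists. The other TSC gene, Tsc2 (chr17:24595816-24632630, − strand, 41 exons), had 1 H4K8ac peak in each SIT list and none in the separate arms. The exercised peak, chr17:24596887-24597825, was 939 bp wide and the sedentary one, chr17:24596616-24597670, was 1055 bp wide. They shared 784 bp. Although classed as promoter, both lay over exons 38 to 40, between 34.805 and 36.014 kb past the start and next to the end of the convergent gene Pkd1. The exercised peak was wider than 5.82% of its list, and the sedentary one than 27.1%.

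Rictor (chr15:6708379-6800401, + strand, 92.023 kb) had both marks assigned, in different lists. Its 1 H4K8ac peak, of 1008 bp in intron 2 (chr15:6717310-6718317), was in the sedentary SIT list. As at Mtor, further H4K8ac peaks in the gene body carried another symbol, here Osmr. They numbered 2 in exercised SIT, 1 in exercised right separate and 1 in sedentary right separate, between 1403 and 1905 bp wide. Rictor coverage with them was 3.16% in exercised and 1.03% in sedentary SIT, so the side with more H4K8ac turned once all peaks over the gene were counted. It was 1.94% against 1.61% in right separate and 0 in left separate. The mean difference was 0.82 ± 1.15 points (SD, n = 3 arms; exact sign-flip p = 0.50).

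H3K27me3 was listed for 2 of the 9 genes, Rictor and Nprl3, and for 28.1% of coding genes in at least 1 list. No H3K27me3 peak covered the start of any of the 9 genes, where between 4.99 and 10.4% of coding genes had one, depending on the list. The 6 peaks formed 1 site upstream of Rictor and 1 upstream of Nprl3. The Rictor site spanned chr15:6701278-6705561, at -7.101 to -2.818 kb relative to the start. Its peaks were 2941 bp wide in exercised SIT, 2209 bp in sedentary left separate and 4190 bp in sedentary right separate. The other 3 lists had none, so with all peaks by assigned symbol its presence followed the same sides as H4K8ac at the Kptn start. This likeness depended on the setting. The Rictor peak in exercised SIT dropped out at equal numbers of peaks, with only the widest or only promoter peaks, and with distal peaks left out. It also dropped out with peaks of any symbol over the gene and its flanks. Kptn kept its sides under each of these settings. The Nprl3 site spanned chr11:32269258-32273226, at -5.519 to -1.551 kb relative to the start. Peaks were 3969 bp wide in exercised SIT, 2680 bp in exercised left separate and 1542 bp in sedentary right separate. At each site the 3 peaks had a stretch in common, of 2209 bp at Rictor and 1542 bp at Nprl3. The sedentary right separate peak at Nprl3 was among the narrowest of its list, wider than 2.78% of it.

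By list, H3K27me3 was in the exercised list alone for 2 of the 9 genes in SIT, where 10.3% of coding genes were, and in the sedentary list alone for none, against 0.242%. In left separate Nprl3 was in the exercised list alone and Rictor in the sedentary list alone, against 4.01 and 1.99% of coding genes. In right separate both were in the sedentary list alone, as were 10.4% of coding genes, and none in the exercised list alone, against 0.68%. Nprl3 had both marks in 3 of the 6 groups, exercised SIT, exercised left separate and sedentary right separate, with 0 bases inside peaks of both. Between 2.94 and 10.8% of coding genes had both marks in a group.

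The gene starts themselves were read next. The exercised SIT list had the starts of Kptn, Mtor and Nprl3 inside a peak, 3 of 9, against 18.5% of coding genes. The sedentary SIT list had none of the 9, against 7.55%. Both sedentary separate lists had the Kptn start alone, against 13.0 and 11.1% of coding genes. The exercised separate lists had none, against 4.74 and 5.89%. Of 101 H4K8ac peaks, 52 were classed as promoter, but 44 of these lay over 3 kb from the outermost start of their gene. A further 26 peaks overlapped the 9 genes or the 3 kb beside them under another symbol, at 6 of the 9 genes.

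Peaks of the 9 genes were also matched between the conditions of an arm. In SIT 10 of 25 exercised H4K8ac peaks of the 9 genes overlapped a sedentary one by at least 1 bp, in left separate 12 of 13 and in right separate 4 of 6. Over all H4K8ac peaks of these exercised lists the shares were 43.9, 73.1 and 68.0%. The other way round, 11 of 14, 11 of 27 and 3 of 16 sedentary peaks overlapped an exercised one, against 59.0, 25.2 and 35.6% of all sedentary peaks. Of the 25 H4K8ac sites of these genes with a peak in SIT, 14 had it in the exercised list alone and 3 in the sedentary list alone. Rptor alone held 14 of the 25 sites, with 11 of those in the exercised list alone and 2 of those in the sedentary list alone. Over all sites in SIT, joined without regard to symbol, the shares were 41.9 and 24.4%. In left separate 1 and 15 of 24 sites were on 1 side alone, against 7.72 and 69.3% of all sites, and in right separate 0 and 12 of 16, against 14.3 and 54.4%. A peak in a single list was seen at 14 of the 35 sites, and at 49.9% of all sites. Shares on each side moved with list length over all peaks, and the small counts at the 9 genes were not tested against them.

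The wider pathway was read from 61 genes in 11 gene lists, 52 of them outside the 9. Of the 52, 38 (73.1%) had H4K8ac in at least 1 list and 10 (19.2%) in all 6, against 52.0 and 12.4% of coding genes. H3K27me3 was listed at least once for 12 (23.1%), against 28.1% of coding genes. In SIT 12 of 52 (23.1%) had H4K8ac in the exercised list alone and 1 in the sedentary list alone. In left separate the counts were 1 and 21 (40.4%), and in right separate 0 and 8 (15.4%). The shares of coding genes on 1 side alone are given above. No gene of the 52 was in the exercised list alone in every arm, or in the sedentary list alone in every arm, in either mark, and between 0.0137 and 0.452% of coding genes were.

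Of the 52, 10 had their peaks on opposite sides in SIT and a separate arm, with H4K8ac in the exercised list alone in SIT and in the sedentary list alone in at least 1 separate arm. Among coding genes 7.14% did so. Named after their values were seen, they included Akt1, BC048403, Lamtor1, Mapkap1, Mlst8, Prkaa1, Rps6kb2, Wdr24 and Wdr59. Prkaa1, a catalytic subunit of the energy sensor AMPK, and Wdr24, of the GATOR1 antagonist GATOR2, had the Kptn pattern in all 12 lists. None of the 52 showed the opposite, as 0.424% of coding genes did.

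Of the mTORC1 subunits, Mlst8 had 1 H4K8ac peak in exercised SIT and 1 in sedentary right separate, Akt1s1 had none, and Deptor, an mTOR inhibitor, had H3K27me3 and no H4K8ac. Of the mTORC2 subunits, Prr5 was in 5 H4K8ac lists and Mapkap1 in 2, against 1 for Rictor. Tbc1d7, the third TSC subunit, had 52 H4K8ac peaks over all 6 lists, where Tsc1 had 0 and Tsc2 had 2.

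In KICSTOR, Itfg2 was in all 6 H4K8ac lists and BC048403 in 4. The counts by gene list stand against 12.9% of coding genes in the exercised list alone in SIT and 21.3% in the sedentary list alone in left separate, and with 4 to 11 genes a list they were not tested. In GATOR2 2 of 5 genes were in the exercised list alone in SIT, and 4 of 5 were in the sedentary list alone in left separate. Mios, of GATOR2, was in 3 H4K8ac lists, and so was Sec13. Of the 9 Rag and Ragulator genes, which recruit mTORC1 to the lysosome, 2 were in the exercised list alone in SIT and 2 in the sedentary list alone in left separate. Lamtor1 was in 2 H4K8ac lists and Lamtor2 in none. Of the 4 genes listed with folliculin, 0 were in the exercised list alone in SIT and 1 was in the sedentary list alone in left separate, with Flcn in no list and Fnip1 in 1.

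Of the 5 amino acid sensors, 0 were in the exercised list alone in SIT (12.9% of coding genes) and 2 were in the sedentary list alone in left separate (21.3%). Castor1 was in no list and Castor2 in 4 H4K8ac lists. Of the 11 genes listed with Rheb and the upstream kinases, 4 were in the exercised list alone in SIT and 5 in the sedentary list alone in left separate. Akt2, which acts above TSC2, and Ddit4, a stress-induced mTORC1 inhibitor, were in all 6 H4K8ac lists. Against the same shares, 1 of the 8 substrates was in the exercised list alone in SIT and 4 were in the sedentary list alone in left separate. Eif4ebp1, a repressor of translation that mTORC1 inactivates, was in 5 H4K8ac lists and Eif4ebp2 in 1.

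H3K27me3 at the other pathway genes was concentrated in a few. Grb10, an adaptor that damps growth factor signalling, had 97 H3K27me3 peaks of 867641 bp in total, followed by Rragc with 44 peaks and 202267 bp and Prr5l with 30 peaks and 153305 bp. These 3 (5.77% of the 52) were in all 6 H3K27me3 lists, against 10.7% of coding genes, and in no H4K8ac list, against 4.997% of coding genes with both features. None of the 44 Rragc peaks was classed as promoter, against 23 of 97 at Grb10 and 16 of 30 at Prr5l. Lpin1 followed with 47497 bp, Deptor with 20955 bp, Rraga with 16585 bp, Mapkap1 with 14993 bp, Sesn3 with 8387 bp, Castor2 with 2549 bp and Sesn1 with 2496 bp. On the same scale Rictor had 9340 bp and Nprl3 had 8191 bp. As at Rragc, no H3K27me3 peak of Lpin1, Mapkap1, Sesn3, Castor2 or Sesn1 was classed as promoter.

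**Figure D5:**
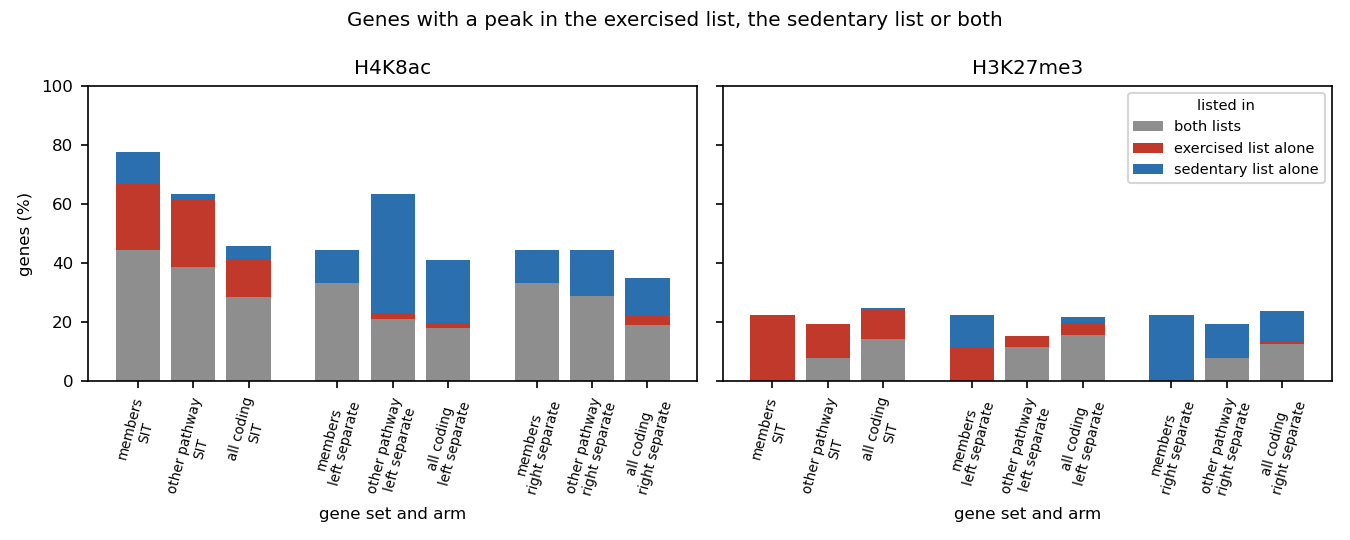
Percent of genes listed in both conditions (grey), in the exercised list alone (red) or in the sedentary list alone (blue), by arm, for the 9 genes, the other 52 pathway genes and all 21911 coding genes, with H4K8ac on the left and H3K27me3 on the right. Red outweighs blue in SIT and blue outweighs red in the separate arms for H4K8ac in all 3 sets, with 2 of the 9 genes red and 1 blue in SIT.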

How the data were processed

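Per the paper's methods and the submitters' processing notes, the authors aligned CUT&RUN-seq reads with Bowtie2 2.4.1 after FastQC 0.11.9, called peaks with SEACR (stringent, 0.01), and annotated them with ChIPseeker 1.8.6 against mm10 transcripts, a promoter being 3 kb on either side of any transcript start. Some exercised H4K8ac libraries with a high false discovery rate were left out, mostly from the separate isolations and also from SIT, sedentary and exercised mice were excluded for their RNA, and the way libraries of a group were merged is not given in the sources used here. The deposited tables hold other quantities than signal: start, end and width in bp, and distance to the start. They give no counts, signal or p-value, so depth and precision are unknown. Coordinates are printed as deposited; starts appear to be 0-based.

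Gene positions came from GENCODE M21 (GRCm38) and sequences from RefSeq GRCm38.p6, with all 9 genes matched. All 2289 promoters of chromosome 11 in that table were identical to the genome. A gene was listed where a peak carried its symbol. Background shares are over 21911 protein-coding genes. Covered bases of the gene and 3 kb on either side were compared over 3 arms by exact permutation of the signs of the differences (two-sided). Sites were peaks of 1 mark joined by at least 1 bp. Interval functions were tested on simulated data and matched base-by-base counts in 20 of 20 sets. Named genes were the 9 members, other pathway genes on 1 side in every arm, the 10 others with the most H3K27me3, the first 2 to 4 of each list in alphabetical order, and the 3 genes nearest Kptn and Mtor by Euclidean distance of log10(1 + summed width). Genes singled out for a shared pattern with Kptn were chosen after their values were seen. Some pathway genes counted in the lists are not reported here by name. The members and lists were chosen with earlier results of these data known. Alternatives were equal numbers of peaks by width, the widest 50%, only promoter-class peaks, removal of distal intergenic ones, at least 2 peaks, peaks of any symbol over the gene, the start or the gene alone, and reciprocal overlap of 50%. Python 3.11.15, numpy 2.4.6, pandas 2.3.3 and matplotlib 3.10.9 were used.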

Additional observations from a re-analysis of the deposited data

Results flagged for a closer look

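Peaks at 3 genes were on opposite sides in different arms, which was seen without a test because each arm has 1 list per condition. Values are summed peak widths, exercised minus sedentary. H4K8ac at Kptn was 2264 bp in SIT, -4747 bp in left separate and -2321 bp in right separate. Among coding genes 7.14% had H4K8ac in the exercised list alone in SIT and the sedentary list alone in at least 1 separate arm. The like share for H3K27me3 was not computed. H3K27me3 upstream of Rictor was 2941 bp in SIT, -2209 bp in left separate and -4190 bp in right separate. H3K27me3 upstream of Nprl3 was 3969 bp in SIT, 2680 bp in left separate and -1542 bp in right separate. The difference between arms was not tested, and the part of list length was not tested: the exercised list was the longer one in SIT for both marks (ratios 1.26 in H4K8ac and 2.50 in H3K27me3) and in left separate for H3K27me3 (1.26), and the shorter one elsewhere (0.334 to 0.545). Cut to equal numbers of peaks, the lists had no H3K27me3 at Rictor in SIT and none at Nprl3 in right separate. Kptn kept its sides, so it alone of the 3 genes was still on opposite sides.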

How the results depend on the processing

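Of 258 recomputed values, 3 reversed, 79 moved, and 176 did neither, which for coverage means only that the sign did not turn. No paired analysis was possible because each list pools its libraries and its columns carry no replicate; replicates could not be left out for the same reason. Depth limits every absence: a missing peak is not evidence of a missing mark, and counts of 0 to 2 genes move with a single peak.

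Among the 9 genes, H4K8ac in the exercised SIT list alone (2 genes) became 3 with the widest 50% of each list, 0 with at least 2 peaks per gene and 1 with peaks of any symbol over the gene. H4K8ac in the sedentary SIT list alone (1) became 2 at equal numbers of peaks, and 0 with the widest 50%, promoter peaks, at least 2 peaks or any symbol. The sedentary list alone in left separate (1) became 2 with the widest 50%, promoter peaks or any symbol and 0 with at least 2 peaks. In right separate (1) it became 2 with the widest 50% or promoter peaks and 0 with at least 2 peaks, and the exercised list alone (0) became 1 with any symbol. For H3K27me3, the exercised SIT list alone (2) and the sedentary right separate list alone (2) each became 0 with at least 2 peaks and 1 at equal numbers, the widest 50%, promoter peaks, distal peaks left out or any symbol. In left separate the exercised list alone (1) became 0 with the widest 50% or at least 2 peaks, and the sedentary list alone (1) became 0 with either of these, promoter peaks, distal peaks left out or any symbol. Kptn kept its side in all 3 arms except with at least 2 peaks, since it had 1 peak a list.

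The mean H4K8ac coverage difference reversed at equal numbers of peaks for Rptor (0.84 points, exact sign-flip p = 0.75) and Depdc5 (0.0742 points, exact p = 1), and within 3 kb of the start for Nprl3 (15.8 points, exact p = 0.50). Other coverage means moved in size by over 1.5 times with no change of sign. Within 3 kb of the start, H4K8ac went from -8.33 to -26.68 points at Kptn, 1.54 to 11.51 at Mtor and -1.87 to -6.055 at Depdc5, and to 0 at Rptor, Rictor and Tsc2, and H3K27me3 went from 1.38 to 11.06 at Nprl3 and -0.0622 to -1.016 at Rictor. Over the gene alone, H4K8ac at Mtor became 0.453, and H3K27me3 at Nprl3 and Rictor became 0. Equal numbers of peaks gave 1.358 at Rictor and -0.821 at Tsc2, and the widest 50% gave -0.506 at Rptor, -1.054 at Depdc5 and 0 at Tsc2. Exercised peaks overlapping a sedentary one fell under a reciprocal overlap of 50% from 10 to 2 in SIT, 12 to 5 in left separate and 4 to 1 in right separate. The cause of these changes was not tested, other than that stricter settings keep fewer peaks.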
